A study of Mus musculus with 6 samples.

Results

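Immediate early genes are transcribed within minutes of a stimulus, without new protein synthesis, and in neurons they report recent electrical activity. Of 47794 genes in the deposited table, 38 such genes were examined, chosen by name as activity-induced and each matched to 1 row through its Ensembl ID. The RNA, sequenced as 3 libraries per group, came from the primary somatosensory cortex of C57BL/6 mice aged 14 days. The overexpression group carried β-cat lox(ex3) together with Nex-Cre and the control group carried β-cat lox(ex3) alone. The floxed β-catenin allele was thus common to both groups. Nex-Cre was present in the overexpression group only, so Nex-Cre itself and loss of exon 3 cannot be told apart. Nex-Cre recombines in excitatory neurons of the forebrain, where loss of exon 3 stabilises β-catenin, and the dissected tissue also held interneurons, glia and vessels. In bulk tissue, fewer cells of a type and less RNA per cell cannot be told apart. Nothing in the labels ties a library to its own animal, and the p-values therefore reflect the spread of these samples alone, part of which may be technical.

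Calcium entry through synaptic receptors and channels activates calmodulin-dependent kinases, calcineurin and the MAP kinase cascade, which act on factors already present in the nucleus such as CREB, SRF and MEF2. These switch on early transcription factors of the AP-1, EGR and NR4A families, and early effectors that reach the synapse directly, such as Arc and Homer1. Feedback members, among them the dual-specificity phosphatases and Sik1, shut the same signals off again. In sensory cortex these genes are widely used as markers of recently active neurons.

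CREB binds the cAMP response element (CRE, TGACGTCA) and its shorter core (TGACG), and SRF binds the CArG box. RefSeq promoter windows, which run from 250 bases before to 50 after a start site, were matched by symbol for 29 of the 38 genes. Arc, Crem, Dusp4, Egr1, Egr3, Ier2, Nptx2, Sik1 and Trib1 had no entry. Searched on both strands, the full CRE occurred in windows of 4 of the 29 genes (13.8%), against 2.03% of 27025 genes with a window. The core occurred in 21 of 29 (72.4%), against 23% of all genes, where each full CRE also holds the core on both strands. The CArG box occurred in 2 of 29 (6.9%), Dusp5 and Egr2, against 1.81%. The EGR sequence GCGTGGGCG occurred in 1 gene, Maff, against 0.707%, and the AP-1 sequence TGANTCA in 0 of 29, against 8.97%. GC content was also higher in these windows, with a median of 63.3% over 37 windows of the examined genes and 52.7% over 32851 windows. The letters CG in a row, which the CRE and its core contain, had a median of 7.33 per 100 bases in windows of the examined genes. That median was 2.33 over all windows and 6 over windows with the core. The part of base composition in the motif counts was not tested. The windows of the 4 genes with a full CRE or a CArG box and the highest mean read counts are shown, as they let the letters of both elements be read in members of the set. They are RefSeq sequences of build GRCm38.p6, written 5′ to 3′ on the gene's strand, with capitals marking the CRE, which begins 62 bases before the start site in Plk2, 143 in Dusp1 and 166 in Btg2, and a pair of adjoining CArG boxes in Dusp5, 82 and 72 bases before it.
Plk2, chr13:110394794-110395093, plus strand: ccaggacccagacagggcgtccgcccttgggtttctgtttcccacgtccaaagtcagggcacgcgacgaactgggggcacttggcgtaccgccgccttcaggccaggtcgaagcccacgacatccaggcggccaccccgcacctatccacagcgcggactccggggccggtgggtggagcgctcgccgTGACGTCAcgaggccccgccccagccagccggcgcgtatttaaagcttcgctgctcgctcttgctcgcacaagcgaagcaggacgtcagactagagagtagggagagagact
Dusp1, chr17:26508423-26508722, minus strand: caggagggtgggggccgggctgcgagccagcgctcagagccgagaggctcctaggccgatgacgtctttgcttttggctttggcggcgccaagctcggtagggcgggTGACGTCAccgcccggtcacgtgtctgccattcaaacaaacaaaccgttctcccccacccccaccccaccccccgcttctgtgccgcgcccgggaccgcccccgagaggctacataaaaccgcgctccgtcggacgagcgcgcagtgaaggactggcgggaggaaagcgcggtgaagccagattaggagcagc
Btg2, chr1:134079106-134079405, minus strand: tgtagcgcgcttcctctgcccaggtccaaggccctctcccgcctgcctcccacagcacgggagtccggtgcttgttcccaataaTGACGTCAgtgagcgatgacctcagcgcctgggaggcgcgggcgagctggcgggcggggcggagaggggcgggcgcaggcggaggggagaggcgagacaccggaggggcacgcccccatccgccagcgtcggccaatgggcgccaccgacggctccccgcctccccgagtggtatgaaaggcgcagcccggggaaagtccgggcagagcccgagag
Dusp5, chr19:53528895-53529194, plus strand: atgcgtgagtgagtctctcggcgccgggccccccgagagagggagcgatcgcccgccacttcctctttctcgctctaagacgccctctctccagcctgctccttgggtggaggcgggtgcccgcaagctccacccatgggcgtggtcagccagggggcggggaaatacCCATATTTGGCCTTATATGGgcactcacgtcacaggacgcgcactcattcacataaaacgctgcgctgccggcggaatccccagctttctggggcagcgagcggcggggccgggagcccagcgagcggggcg
A match is a description of letters in the window, and whether a factor bound there was not measured.

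No member of the set passed the test between overexpression and control cortex. Of 38 genes, 0 passed an adjusted p under 0.05 in the authors' deposited table, where 0 of 30152 tested genes (0%) did, and the adjusted value was 1 for each of the 38. In the authors' deposited table the count at an unadjusted p under 0.05 was also 0 of 38, against 0.534% of all genes tested there, with 0.328% on the higher side and 0.206% on the lower side in overexpression cortex. The smallest unadjusted p was 0.129, for Btg2, in the authors' deposited table. The overexpression mean was the lower one for 28 genes and the higher one for 10, so 73.7% were lower. This compares with 52.6% of the 16298 genes with means in the same range, and 57.8% of the 11645 genes with a mean of at least 100. The median log2 fold change of overexpression over control was -0.07 for the 38 genes, -0.01 for the 16298 genes and -0.02 for the 11645 genes. Group means of 32 of the 38 genes lay within 1.2-fold of each other (84.2%), against 87.4% among the 16298 genes, and all 38 lay within 1.5-fold. For 10 of the 38 (26.3%) the higher mean was at most 5% above the lower, against 44.1% of those genes. At the ends of the range stood Egr3, with a log2 fold change of -0.48, and Npas4, with 0.36. With both columns scaled to the same total, which moves every log2 ratio up by 0.03, Egr2, Ier5 and Trib1 turned to the higher side and 25 genes were lower. Since members were chosen with earlier results known, these counts are a description and carry no p for the list.

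**Figure D1:**
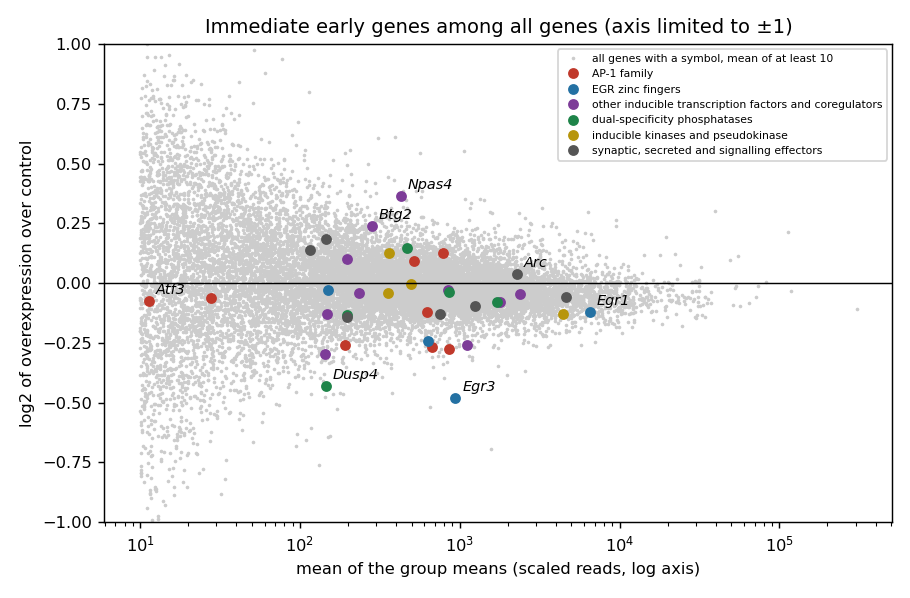
Each point is a gene, with the mean of the 2 group means (scaled reads, log axis) against the log2 ratio of overexpression over control, and coloured points are the immediate early genes by role. They lie within the cloud of other genes, between Egr3 at -0.48 and Npas4 at 0.36, and 21 genes beyond the axis limits are not drawn.

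**Figure D2:**
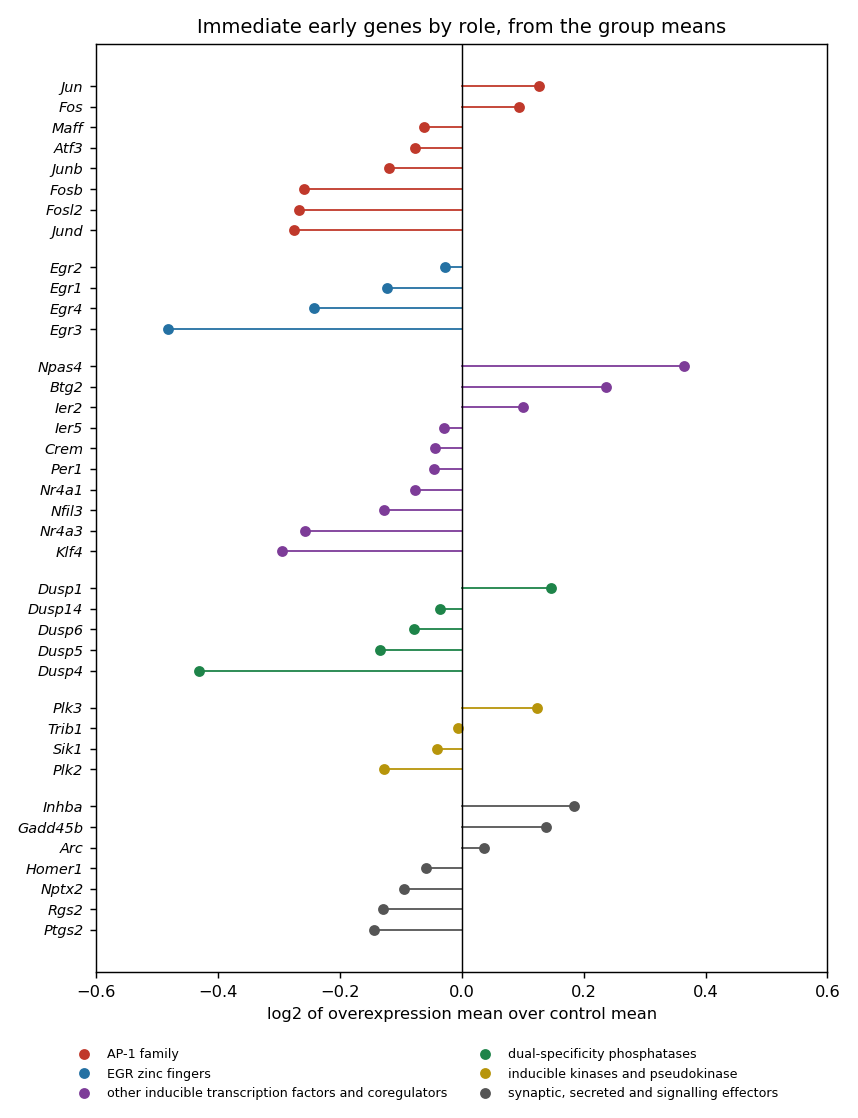
Points show log2 ratios, overexpression mean over control mean, for the 38 genes, ordered within each role, with no error bars because the table holds group means. Of the 38 points 28 lie left of 0, including all 4 EGR genes (3 of them at equal column totals, where Egr2 turns), and 10 lie right of it.

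Read numbers in single libraries were recovered for part of the set. Each deposited group mean is a sum of whole reads from 3 libraries, each divided by its own scaling factor, and for low and moderate means a single combination of whole reads gives the stored digits. That held in both groups for 12 of the 38 genes and in control cortex for 24. Letters A to C run from the highest to the lowest scaling factor, and the libraries cannot be tied to replicate numbers. In a limma fit over the 7863 genes recovered in both groups with a mean of at least 10, 0 of the 12 had an adjusted p under 0.05, as did 0 of 7863 (0%). At an unadjusted p under 0.05 the count was 0 of 12, against 2.12% of the 7863 genes. The 3 overexpression values overlapped the 3 control values for all 12 genes, while 7.22% of the 7863 genes showed no overlap (4.68% with overexpression above control and 2.54% below it). The other 26 genes had several possible combinations, or a mean too high to be searched, in at least 1 group. Leaving out 1 library raised or cut the log2 fold change of each of the 12 genes by over 1.5 times in at least 1 case. Where the value is near 0, such as -0.005 for Atf3, a small shift is enough for this, and the share over all genes was not computed. The direction turned for 6 of the 12 genes. The lowest and highest values without 1 library are given beside each limma value.

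**Figure D3:**
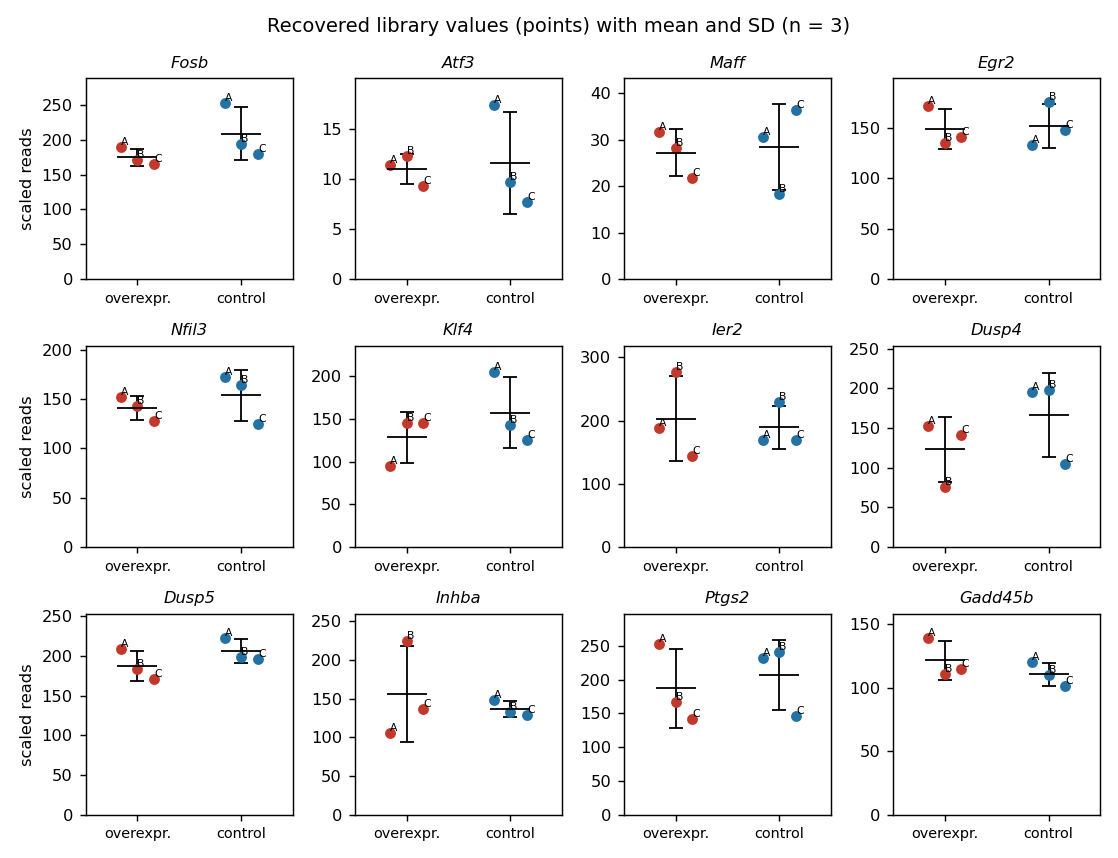
Points are scaled reads in overexpression libraries (left) and control libraries (right) for the 12 genes recovered in both groups, lettered A to C, with the mean as a bar and the SD as whiskers (n = 3). In every panel the ranges of the groups overlap, and for Dusp4, Klf4, Ptgs2 and Fosb control library C lies at the low end of its group.

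The AP-1 factors are leucine-zipper proteins that bind DNA in pairs, such as a Fos and a Jun protein. Of the 8 genes grouped here, with Atf3 and Maff included, 6 were lower and 2 were higher in overexpression cortex. Their median log2 fold change was -0.10. Fos, the classic activity marker, had a mean of 537 scaled reads in overexpression and 504 in control cortex, a log2 fold change of 0.09. Its control libraries were at 516, 482 and 513, a spread of 3.78% (coefficient of variation), which was below the 4.6% given by counting error alone. Jun, its main partner, had means of 823 and 754 in overexpression and control cortex, with control libraries at 790, 755 and 716. Both genes thus had control libraries close to one another.

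Fosb, whose splice form ΔFosB accumulates with repeated activity, had 189, 170 and 165 scaled reads in overexpression libraries A, B and C, against 253, 194 and 180 in control libraries. Control libraries A and B were above all overexpression libraries, and control library C lay between overexpression libraries A and B. The log2 fold change of Fosb was -0.24 ± 0.15 (SE, limma, n = 3 each), with a 95% interval from -0.57 to 0.08 and an adjusted p of 0.999. That value was -0.10 without control library A and -0.34 without control library C. Fosl2, encoding Fra-2, had means of 608 in overexpression against 732 in control cortex, with control libraries spread over 902, 731 and 562. Junb, a Jun protein that can restrain Jun, had means of 601 and 653 in overexpression and control cortex, and its control libraries spread over 692, 829.5 and 438. Jund, the least inducible Jun gene, had means of 779 and 942, with control libraries at 1062, 941 and 824. For Fosl2, Junb and Jund control library C was the lowest of its group.

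Atf3, a stress-induced partner of Jun proteins, was the least abundant gene of the set, with 11.4, 12.2 and 9.31 scaled reads in overexpression and 17.3, 9.72 and 7.72 in control libraries. Maff, a small Maf protein without a transactivation domain, had 31.8, 28.2 and 21.7 scaled reads in overexpression and 30.5, 18.4 and 36.4 in control libraries. At these depths the 95% intervals of the limma log2 fold change ran from -0.85 to 0.84 for Atf3 and from -0.67 to 0.62 for Maff. An observed change of 1.5-fold would thus not have reached an unadjusted limma p under 0.05 for either gene. Leaving out 1 library turned the direction of both, from -0.23 (without control C) to 0.30 (without control A) for Atf3 and from -0.30 (without control B) to 0.18 (without control C) for Maff.

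The EGR zinc fingers bind GC-rich elements in the promoters of synaptic and metabolic genes, and Egr1 is the family member most used to map cortical activity. All 4 had lower means in overexpression cortex, with a median log2 fold change of -0.18, although Egr2 turned higher with columns scaled to the same total. Egr1 had 6228 scaled reads in overexpression and 6782 in control cortex. It was also the most abundant gene of the set per length, at 1388.9 scaled reads per kilobase of annotated exon in overexpression and 1512.5 in control cortex. Egr3, an activity-induced relative of Egr1, had means of 784 and 1095 in overexpression and control cortex, a log2 fold change of -0.48 with an unadjusted p of 0.204 in the authors' deposited table. This was the largest difference between group means among the 38 genes in log2 terms. Egr4, which is largely confined to the nervous system, had means of 583 and 690 in overexpression and control cortex, with an unadjusted p of 0.462 in the authors' deposited table. Egr2, known from Schwann cell myelination and also induced by activity in neurons, had 171, 135 and 141 scaled reads in overexpression libraries, against 132, 175 and 148 in control libraries. The Egr2 values of the groups interleaved, and its limma log2 fold change of -0.03 had a 95% interval from -0.37 to 0.32. It was -0.13 without overexpression library A and 0.08 without control library B.

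Among 10 further inducible regulators of transcription, 7 were lower and 3 were higher in overexpression cortex, with a median log2 fold change of -0.04. Npas4, a neuron-specific basic helix-loop-helix PAS factor that responds to calcium entry, had the highest ratio of the set, with means of 480 in overexpression against 373 in control cortex. Its unadjusted p was 0.304 in the authors' deposited table. The control libraries of Npas4 were at 270, 423 and 426, so that control library A was low and the other two were close together. For its overexpression mean 7 combinations of reads were possible, and under each of them at least 1 overexpression library lay below the highest control library. The combination with the least spread was 399, 663 and 378 scaled reads.

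The NR4A orphan nuclear receptors are early genes that act without a known natural ligand. Nr4a1 had means of 1732 in overexpression against 1828 in control cortex, and Nr4a3 had means of 1017 and 1216, a log2 fold change of -0.26. Btg2, a regulator of mRNA deadenylation and of the cell cycle, had means of 304 in overexpression against 258 in control cortex, with control libraries at 264, 249.5 and 260. Only 1 of the 2 possible combinations for Btg2 in overexpression cortex lay within 2-fold, at 365, 260 and 287 scaled reads. Its lowest overexpression value, 260, was inside the control range, so the groups overlapped. Klf4, a zinc finger gene that is also expressed in vessels, had 94.5, 145 and 146 scaled reads in overexpression and 205, 143 and 126 in control libraries. Its limma log2 fold change was -0.29 ± 0.21 (SE, n = 3 each) with an adjusted p of 0.999. It was -0.08 without overexpression library A, -0.09 without control library A and -0.44 without control library C.

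Nfil3, a leucine-zipper repressor, had 152, 143 and 127 scaled reads in overexpression and 172, 164 and 125 in control libraries. Ier2, a small nuclear protein, had 189, 277 and 144 scaled reads in overexpression and 170, 229 and 170 in control libraries, so that library B was the highest of either group. The limma log2 fold change of Ier2 was 0.06, with -0.19 without overexpression library B and 0.28 without overexpression library C. Ier5, a related regulator of heat shock factor, had means of 841 in overexpression and 859 in control cortex. Per1, a clock repressor that CREB also induces, had means of 2348 and 2425 in overexpression and control cortex. Crem, whose internal promoter gives the inducible repressor ICER, had means of 230 and 237, and gene-level values do not separate ICER from the longer forms. Control libraries of Crem were at 271, 213 and 227.

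Dual-specificity phosphatases remove phosphate from MAP kinases and so end the signal that induced them. Of 5 measured, 4 were lower and 1 was higher in overexpression cortex, with a median log2 fold change of -0.08. Dusp4, a nuclear phosphatase, had 152, 76.2 and 141 scaled reads in overexpression and 195.5, 198 and 105 in control libraries. Each group held 1 low library, overexpression B and control C. The limma log2 fold change of Dusp4 was -0.43 ± 0.28 (SE, n = 3 each), with an unadjusted p of 0.147 and an adjusted p of 0.999. Those low libraries moved this value in opposite directions. Without overexpression library B it was -0.12, with an unadjusted limma p of 0.625, and without control library C it was -0.73, with an unadjusted limma p of 0.0149 and an adjusted p of 0.99. Dusp5, a nuclear phosphatase selective for ERK, had 209, 184 and 171 scaled reads in overexpression and 223, 199 and 196 in control libraries. Dusp6, its cytoplasmic counterpart, had means of 1666 in overexpression and 1758 in control cortex. Dusp14, an atypical family member, had means of 845 and 867 in overexpression and control cortex. Dusp1, which acts on JNK and p38 as well as ERK, was the one with the higher mean in overexpression cortex, 494 against 446, and its control libraries were at 450, 481 and 408. A log2 fold change of 0.15 separated its group means.

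Plk2, Plk3, Sik1 and Trib1 encode inducible kinases or, for Trib1, a pseudokinase. Of these, 3 were lower and 1 was higher in overexpression cortex, and at equal column totals 2 were on each side. Plk2, which acts in the homeostatic weakening of synapses after prolonged activity, had means of 4213 in overexpression and 4604 in control cortex. Per length it was the second most abundant gene of the set, at 938 and 1025 scaled reads per kilobase in overexpression and control cortex. Plk3 had means of 374 and 344, with control libraries at 293, 370 and 367. Sik1, which phosphorylates CREB coactivators and keeps them out of the nucleus, had means of 353 and 363 in overexpression and control cortex, and close control libraries at 348, 357.5 and 384. Trib1, an adaptor for protein degradation, had nearly equal means, 494 in overexpression and 496 in control cortex, although its control libraries spread over 452, 592 and 444.

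The remaining 7 genes act at the synapse, outside the cell or in signalling. Of these, 4 were lower and 3 were higher in overexpression cortex, with a median log2 fold change of -0.06. Arc, which drives internalisation of AMPA receptors and is made at active synapses, had means of 2310 in overexpression against 2253 in control cortex, and an unadjusted p of 0.848 in the authors' deposited table. Per length Arc followed Egr1 and Plk2, at 756 and 737 scaled reads per kilobase in overexpression and control cortex. Homer1, a scaffold that ties metabotropic glutamate receptors to calcium stores, had means of 4552 and 4741. Only its short form Homer1a is induced by activity, and the gene-level value includes the longer forms. Nptx2, a secreted pentraxin that gathers AMPA receptors on interneurons, had means of 1199 and 1281 in overexpression and control cortex. Rgs2, which dampens Gq signalling, had means of 718 and 786.

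Inhba, the activin subunit gene, had 105, 225 and 137 scaled reads in overexpression libraries, against 149, 133 and 129 in control libraries. Its overexpression libraries thus spread on both sides of a narrow control range, with a coefficient of variation of 39.9% in overexpression and 7.6% in control cortex. Ptgs2, the activity-induced cyclooxygenase COX-2 of excitatory neurons, had 253, 167 and 142 scaled reads in overexpression and 232, 241 and 147 in control libraries, and library C was the lowest of both groups. Gadd45b, a stress-response gene tied to active DNA demethylation, had 139, 111 and 115 scaled reads in overexpression and 120, 110 and 101.5 in control libraries. The limma log2 fold changes were 0.11 for Inhba, -0.15 for Ptgs2 and 0.13 for Gadd45b, and all 3 intervals included 0. Without 1 library, values ran from -0.19 (without overexpression B) to 0.36 (without overexpression A) for Inhba. They ran from -0.39 (without overexpression A) to 0.02 (without overexpression C) for Ptgs2, and from 0.03 (without overexpression A) to 0.20 (without overexpression B) for Gadd45b.

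Most recovered members with means from 100 to 1000 differed more between libraries of one group than the median gene of that range. In control cortex 22 recovered members had means from 100 to 1000, and their median coefficient of variation was 13.5%, against 8.4% over 6747 genes of that range, with 15 of 22 above that value. Of these 22 genes, 7 exceeded the 90th percentile of all genes, 18.2%. They were Fosb, Fosl2, Junb, Npas4, Klf4, Dusp4 and Ptgs2, with Junb at 30.4% and Dusp4 at 31.9%. Fos, Jun, Btg2 and Sik1, between 2.88% and 5.08%, were below the median of all genes, so the spread was not shared by the whole set. Among 10 recovered members in overexpression cortex the median was 18%, against 11.8% over 2427 genes. Hardly any overexpression means above 300 were recovered, unlike control means. The spreads of the groups thus come from different genes and are not compared with each other. Within the range, genes were not matched on abundance, and counting error is larger at low means. For Gadd45b in control cortex it was 9.81%, above the spread of 8.45%. These are descriptions of 3 libraries per group, with no test.

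**Figure D4:**
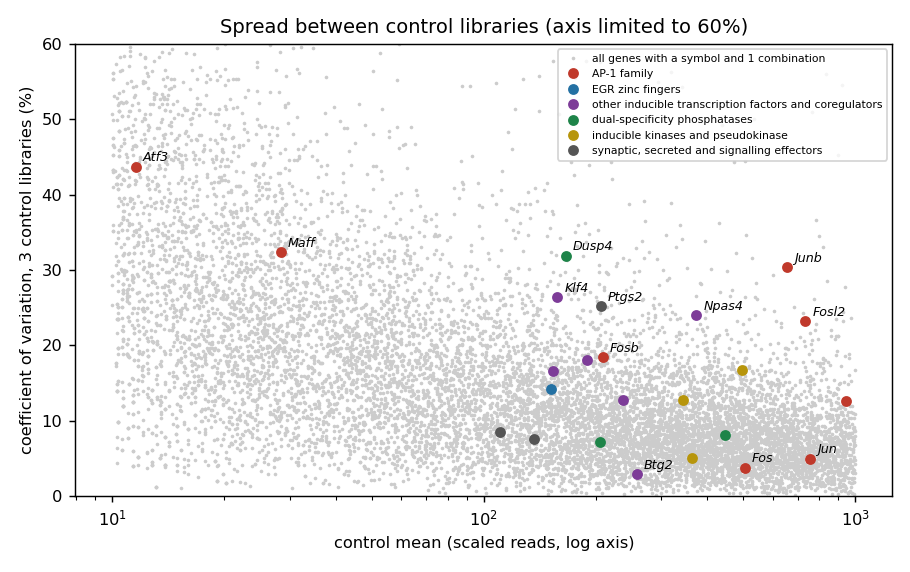
The coefficient of variation over the 3 control libraries (%) is plotted against the control mean (scaled reads, log axis) for all recovered genes in grey and for 24 immediate early genes in colour. Dusp4 at 31.9%, Junb at 30.4% and Npas4 at 24% stand in the upper part of the cloud, and Fos at 3.78% and Jun at 4.94% near its floor.

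The order of the libraries was partly shared. Control library C was the lowest of its group for 15 of the 22 members with a mean from 100 to 1000 (68.2%), against 33.6% of the 6747 control genes of that range. Control library A was the highest for 12 of 22 (54.5%), against 32% of those genes. Over all 24 recovered members the median level was 108% of the gene's control mean in library A, 99.9% in B and 91.6% in C. Npas4, Sik1 and Maff went the other way and were highest in control library C. In overexpression cortex library A was the highest for 7 of the 10 members of that range (70%), against 25.2% of 2427 genes, and library C the lowest for 5 of 10 (50%), against 35.7%. Scaling factors, which follow depth and set the letters, were 1.23, 1.06 and 0.966 in overexpression and 0.982, 0.926 and 0.907 in control libraries A, B and C, so depth ran in the same order, and its part in the pattern was not tested.

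**Figure D5:**
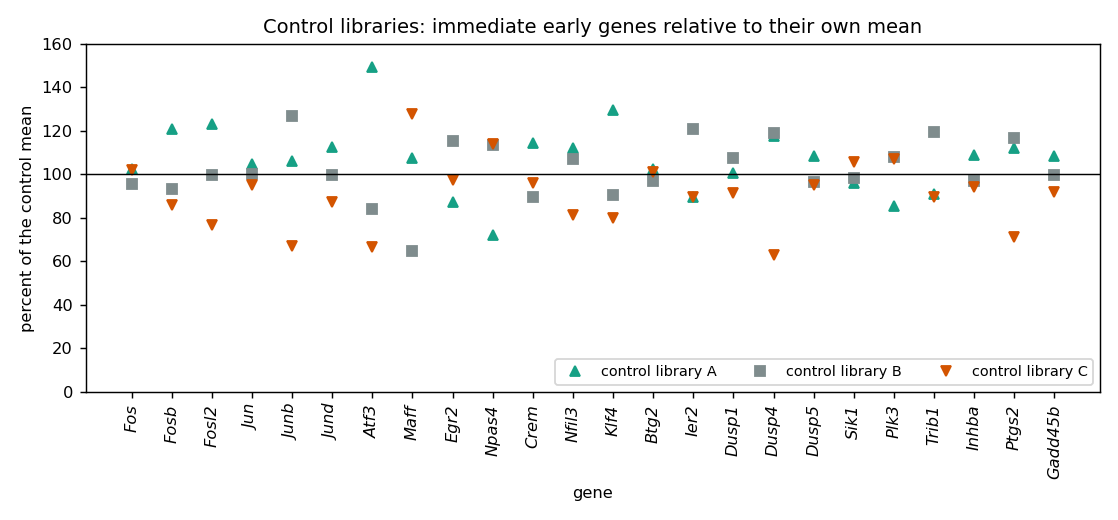
For each of 24 genes the 3 control libraries are shown as a percentage of that gene's control mean. Library C (downward triangles) is the lowest point for 16 genes, among them Junb, Dusp4, Fosl2 and Ptgs2, and library A the lowest for Npas4, Plk3, Egr2 and Sik1.

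Genes up and down the same pathway were taken from lists chosen by known function. Of 21 upstream signalling genes, from calmodulin kinases to the MAP kinase cascade, 0 were below 0.05 before adjustment in the authors' deposited table, and 16 were lower, with a median log2 fold change of -0.03. Camk2a, the main postsynaptic kinase, had means of 63088 in overexpression against 66769 in control cortex, and Ppp3ca, the calcineurin catalytic subunit, had 29713 and 30402. For 19 factors already present before a stimulus, 12 were lower and the median was -0.05. Their most abundant members were Mef2c, at 22954 in overexpression against 26028 in control cortex, and Mrtfb, an SRF coactivator, at 6362 and 6564. Late activity-regulated genes, such as neuropeptides and growth factors, had 17 of 22 members lower and a median of -0.10. Rasgrp1, an activator of Ras, was at 9604 in overexpression against 11105 in control cortex, and Lingo1, a neuronal surface protein, at 8732 and 9832. A further 25 inducible early genes had 14 higher and 11 lower members and a median of 0.02, with Rgs4 at 10719 and 11987 and Nfib at 4704 and 4331 in overexpression and control cortex. The last 3 of these lists likewise held 0 genes below 0.05 before adjustment in the authors' deposited table. With columns scaled to the same total, 11 of the 21 upstream genes were lower. As a background for these lists and those below, 57.8% of all genes with a mean of at least 100 were lower as deposited.

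Among control libraries, A was the highest for 7 of 12 recovered late activity-regulated genes and for 8 of 17 other early genes, with medians of 107% and 106% of the gene's mean, near the 108% of the immediate early genes. Library C was the lowest for 6 of the 12 and 8 of the 17, and these shares were not tested against those of the members. In overexpression cortex the other early genes had another order. There library A was the highest for 2 of 12, with a median of 93.1%, and library B for 8 of 12. Of 6 late activity-regulated genes 3 were highest in overexpression library A, with a median of 103%. For the immediate early genes it was 8 of 12, with a median of 110%. Several of the genes respond to other signals as well. Of 16 circadian clock genes 13 were lower in overexpression cortex, with a median log2 fold change of -0.05 and Tef at 5345 and 5522 and Hlf at 3430 and 3754 in overexpression and control cortex. Of 12 glucocorticoid-responsive genes 7 were lower, with a median of -0.04 and Klf9 at 6993 and 7379 and Mt1 at 2876 and 3010. All 5 glucocorticoid-responsive genes recovered in control cortex were highest in library A, with a median of 118% of the gene's mean there, against 87% in B and 95.2% in C, and the part of this in the members' library order was not tested. Among 9 heat shock and stress genes 5 were lower and the median was -0.07, with Hsph1 at 5807 and 6188 and Hspa5 at 4284 and 4673. In the authors' deposited table these lists also held 0 genes below 0.05 before adjustment. At equal column totals 10 clock genes and 6 glucocorticoid-responsive genes were lower.

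Markers of excitatory cortical neurons were abundant in both groups, as the tissue label implies, and markers of other cells were present too, with none at 0. Of 10 excitatory cortical neuron markers 9 were lower in overexpression cortex, with a median log2 fold change of -0.07, equal to that of the immediate early genes at this precision. The lowest was Neurod6, whose locus carries Nex-Cre, at 1199 in overexpression against 1942 in control cortex, and the authors' deposited table gives it p = 5.04e-05, or 0.76 after adjustment. Endothelial markers had 7 of 10 higher and a median of 0.02, with Flt1 at 1235 and 1153 and Kdr at 799 and 793 in overexpression and control cortex. Microglia markers had 4 of 10 higher, with a median of -0.02 and Csf1r at 1639 and 1597 and Cx3cr1 at 1144 and 1104. For astrocyte markers it was 4 of 10 with a median of -0.03, and Slc1a2 was at 69614 and 72524 and Slc1a3 at 10887 and 11309. All 8 oligodendrocyte markers were higher, with a median of 0.10, with Mbp, a myelin protein gene, at 57327 and 52980 scaled reads in overexpression and control cortex. At equal column totals microglia and astrocyte markers had 5 higher and 5 lower each. Among all these markers Neurod6 alone was below 0.05 before adjustment in the authors' deposited table, and the part of cell composition in the immediate early gene values was not tested.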

How the data were processed

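Per the labels' protocols, Trizol was used for cortical RNA and the TruSeq RNA kit for libraries. The submitters' processing notes list TopHat2 2.0.9 and Bowtie2 2.0.6. For genome build, annotation, counter, strand setting and test, the entry is: not given in the sources used here. Per the file headers, the authors deposited for each gene p-values before and after adjustment, a log2 fold change and 1 read count per group. From the values, the deposited counts are a signal: scaled reads averaged over 3 libraries, whose totals are 18602579 in overexpression against 19016749 in control cortex, and the depth of single libraries is unknown beyond the scaling factors. The deposited log2 values differed from log2 of the ratio of means by at most 4.99e-05. IDs were paired with symbols for 46488 genes.

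Genes were called by the authors' adjusted p under 0.05. Group means up to 1000, stored to 10 significant digits, were searched for all combinations of whole reads of 3 libraries, without limits on spread. A single combination was found for 99.44% of overexpression means from 100 to 200, 50.4% from 200 to 300 and 0.33% from 300 to 500, and for 98.6% of control means from 300 to 500. Recovered values therefore cover the less abundant genes. Recovered values plus 1 were log2-transformed and analysed in limma 3.58.1 (R 4.3.3) with a variance that follows the mean and Benjamini-Hochberg adjustment. The added 1 tends to understate fold changes of low genes. A limma log2 fold change is a difference of mean logs, so it can depart from the log2 ratio of group means used elsewhere. Those were -0.005 and -0.08 for Atf3, 0.11 and 0.18 for Inhba, and both -0.43 for Dusp4. Where several combinations were possible, the only one within 2-fold was used if all others spanned over 4-fold, a rule made after seeing the values; among overexpression means from 50 to 200 with 1 combination, 0.414% spanned over 4-fold. The Egr4, Crem, Btg2, Dusp1, Sik1 and Plk3 values chosen so enter no test in the main results. The recovery and the fit were run on simulated data, for the fit with changes of 2-fold. Differences as small as those of the members, all within 1.5-fold, were not simulated. Exon lengths came from GENCODE M21, which may differ from the authors' annotation. Exons of 7 members overlap a gene on the opposite strand, over 11 bases (Dusp1 and Ergic1), 84 (Plk3 and Tctex1d4), 173 (Junb and Prdx2), 232 (Jun and Junos), 369 (Crem and Gm6225), 543 (Jund and Gm11175) and 547 (Dusp5). With unknown strand setting, reads within these stretches alone cannot be assigned to either gene. Members and lists were chosen with earlier results of these data known. All 38 members are named. In the other lists the genes named are those with an unadjusted p under 0.05, or else the 2 with the highest mean, of which 1 is not reported here; elsewhere genes were singled out after their values were seen. Alternatives were other pseudocounts, filters, scalings, a fit without trend and each library left out.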

Additional observations from a re-analysis of the deposited data

How the results depend on the processing

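The count of called immediate early genes was 0 by the authors' test, by limma and in each limma alternative, with 0 at an unadjusted p under 0.05 except without control library C, where it was 1 (Dusp4). In that limma fit 217 of all 7863 genes were below 0.05 before adjustment on the higher side and 68 on the lower side. Over the 38 genes the median log2 fold change of -0.07 was -0.04 with equal column totals, -0.05 with 10 added to each mean, and between -0.06 and -0.07 under the other settings, and 25 to 28 genes were lower. Over the 12 recovered genes the limma median of -0.07 moved with single libraries: it was -0.134 without overexpression A, -0.123 without overexpression B, 0.0172 without overexpression C, -0.0397 without control A, -0.073 without control B and -0.202 without control C. It was -0.0261 when combinations chosen by spread were added and -0.0244 for group means up to 200, both added after seeing the data. Over all 7863 genes the limma median was 0.0252 in the main fit. Without 1 library that all-gene median ran from 0.00651 (without control A) to 0.0439 (without overexpression A). It was 0.0381 without overexpression C, where the median of the 12 genes was 0.0172. Rescaling the recovered libraries left 0 of 12 genes without overlap. The exact permutation test of 3 libraries against 3 cannot go below 0.1. Where both groups were recovered and the mean reached 100, the median 95% interval, without adjustment, reached 0.334 on the log2 scale to either side. For a typical gene, a smaller observed difference would thus not reach a limma p under 0.05 even before adjustment. An adjusted p under 0.05 requires larger ones. Intervals of members differed in width, from -1.04 to 0.17 for Dusp4 and from -0.42 to 0.15 for Dusp5. No paired analysis was possible because the deposited columns and recovered libraries carry no replicate numbers.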
